A study of Mus musculus with 6 samples.

Results

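The genes described here carry the signals that build and hold the vessels of the uterus: the vascular endothelial growth factors Vegfa, Vegfb and Vegfc, their receptors Kdr, Flt1 and Flt4, the angiopoietins Angpt1 and Angpt2, the angiopoietin receptor Tek, and the vasodilator peptide gene Adm. They were taken as a set of 10 genes of 18193 with a probe set of their own, chosen with earlier results of these data known. Every probe set annotated to exactly 1 of these symbols was included. That gave 20 probe sets of 45037 tested. Total RNA of C57BL6J uterine horns, without the cervix, was hybridised to Affymetrix 1-colour arrays, and each array held RNA pooled from 2 uteri. The control group (3 arrays) carried the conditional transgene allele SF1LsL/+ and no Cre. The SF1 group (3 arrays) carried the same SF1LsL/+ allele together with Pgrcre/+, a Cre allele at the progesterone receptor locus, which by design switches on SF1, the nuclear receptor encoded by Nr5a1, in cells that express Pgr. Every comparison is of SF1 against control. Only the SF1 group carried Cre, so Cre, the dose of Pgr and SF1 differed together and cannot be told apart. Tissue was taken 2 weeks after surgery. In the sources used here, neither the kind of surgery nor the age of the mice is given.

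The labels did not say whether the pools were processed together, and p-values measure the spread between these pools. Array medians lay between 159.0 and 162.2 intensity units in control and between 149.9 and 159.6 in SF1. One sign of RNA quality, the 3'/5' signal ratio of beta-actin, differed without overlap, at 2.385 to 2.580 in control against 2.116 to 2.336 in SF1 (two-sided exact permutation p = 0.1, the lowest value 3 against 3 can give). The same ratio of Gapdh overlapped, at 1.527 to 1.697 against 1.469 to 1.660 (exact permutation p = 0.3), and the part of RNA quality in the results was not tested. Nr5a1 read 152 ± 17.4 in control and 151.3 ± 0.131 in SF1 on its brighter probe set (SD, n = 3) and gave no call on either probe set (limma adjusted p = 0.992 and 0.535). Whether they see the transgene is not known, so Nr5a1 does not check the labels here. Pgr fell from 4797 ± 89.0 to 1893 ± 158 (log2 change -1.34 ± 0.09, SE; limma adjusted p = 3.23e-05).

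In the adult uterus vessels grow and regress with each cycle and expand at implantation. Vegfa, made by epithelium, stroma and macrophages, is the main growth and permeability factor of endothelium and acts through the receptor tyrosine kinase Kdr. Flt1 binds Vegfa tightly but signals weakly, and so holds it back. Vegfc acts mainly through Flt4 on lymphatic endothelium. Angpt1, made by perivascular cells, keeps vessels quiescent through Tek, and Angpt2, made by endothelium, can oppose it. Adm widens vessels and acts on endothelium through the receptor Calcrl joined to Ramp2 or Ramp3.

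Most of the set was lower in SF1. Of the 20 probe sets, 13 were called lower and 0 higher at an adjusted p under 0.05 (limma, Benjamini-Hochberg over all tested probe sets), against 8.08% of all tested probe sets called lower. Of all tested probe sets, 5.88% were called higher. At an unadjusted p under 0.05, 15 were lower and 0 higher. No share over all probe sets or genes is given at that threshold, here or below. For scale, a probe set with a limma p of 0.0502 ranked 13524 by p among the 45037 tested, both directions together. The 13 called probe sets read between 55.8% and 77.3% of their control mean. By its brightest probe set, each of 8 genes fell and 2, Vegfb and Flt4, did not pass the test, against 8.11% of all genes called lower. The median log2 change over the 10 genes was -0.61, and over all genes -0.05. In 15 of the 20 probe sets, and in 8 of the 10 genes, the groups were apart with SF1 below control, against 24.6% of all tested probe sets and 23.7% of all genes. Of the 7 probe sets not called, 5 were dimmer than the median probe set, whose mean over the arrays was 160.3. Tissue RNA does not separate fewer cells of a type from less RNA per cell, and this holds for each value below.

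**Figure D1:**
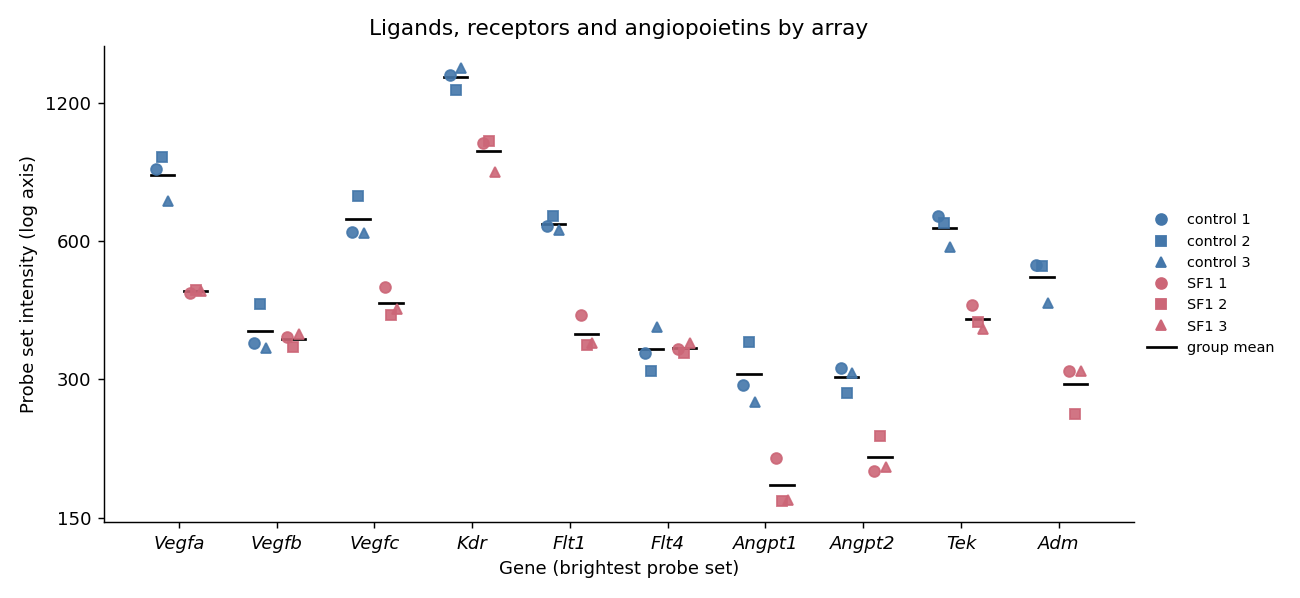
Probe set intensity on a log axis for the brightest probe set of each gene, with 1 point per array (marker shape gives the replicate number) and a bar at the mean of each group of 3. The SF1 points lie below all control points for 8 genes and among them for Vegfb and Flt4; heights of different genes are not comparable, since probe sets differ in brightness.

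Vegfa, the central ligand, read 859, 916 and 732 intensity units in control and 463, 469 and 466 in SF1, in the order of the replicate numbers, as for all values below. The SF1 arrays lay within a few units of each other and well below the lowest control array. The log2 change was -0.82 ± 0.10 (SE; 95% interval -1.03 to -0.60; limma adjusted p = 0.000763). The call rests on this probe set, 1420909_at. The other one, 1451959_a_at, was dim and overlapped between groups, at 149, 99.4 and 145 in control and 127, 135 and 127 in SF1 (log2 change 0.01, 95% interval -0.30 to 0.31, adjusted p = 0.984). Where these probe sets lie along the Vegfa transcripts is not known here, so the values do not separate its splice forms.

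Vegfb, which binds Flt1 but not Kdr, read 360, 438 and 351 in control and 371, 353 and 377 in SF1. The groups overlapped, and the log2 change was -0.05 (95% interval -0.28 to 0.17, adjusted p = 0.746). Within arrays, Vegfa changed by -0.76 on the log2 scale more than Vegfb, with no overlap between groups (exact permutation p = 0.1, the smallest possible, and 0.114 adjusted over 8 such pairs chosen after their values were seen).

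Vegfc, the lymphatic growth factor, fell on all 3 of its probe sets. The brightest, 1439766_x_at, read 627, 753 and 625 in control and 476, 413 and 427 in SF1 (log2 change -0.59 ± 0.10, SE; limma adjusted p = 0.00582). An x in such a name marks probes that may also bind other transcripts. The probe set 1440739_at gave a similar value, -0.58 (adjusted p = 0.00246). The smallest change was that of 1419417_at, from 531, 604 and 627 to 445, 478 and 439 (-0.36, adjusted p = 0.0305). The call of that probe set was lost without any of the 3 SF1 arrays, control replicate 2 or control replicate 3, with a highest adjusted p of 0.0968.

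The bases before the annotated starts of Vegfa, Vegfc and Adm, the called ligand genes with a window, are shown because these genes fell together and because the group difference involves nuclear receptors. RefSeq promoter windows on GRCm38.p6 were found for 8 of the 10 genes, 9 windows in all, each 300 bases long. On either strand, AAGGTCA, the core motif of SF1, occurred in 0 of the 9 windows and in 4.72% of the 32851 windows of all genes. The motif AGAACA, bound by the progesterone and glucocorticoid receptors, occurred in 1, that of Tek (19% of all windows). The hypoxia response core ACGTG occurred in 1, at an internal start of Vegfa (19.6% of all windows). GGGCGG, a box bound by Sp1 and chosen after the first search, occurred in 8 windows, all but that of Tek (35.7% of all windows). Those 8 include the windows of Vegfb and Flt4, which were not called, while Tek was called lower. TATAAA, chosen likewise, occurred in that of Flt1 (13.6% of all windows). None of the 5 motifs contains another. Matches are letters in a window and not sites of binding. Capitals mark GGGCGG on either strand.
Vegfa, chr17:46032378-46032627, minus strand: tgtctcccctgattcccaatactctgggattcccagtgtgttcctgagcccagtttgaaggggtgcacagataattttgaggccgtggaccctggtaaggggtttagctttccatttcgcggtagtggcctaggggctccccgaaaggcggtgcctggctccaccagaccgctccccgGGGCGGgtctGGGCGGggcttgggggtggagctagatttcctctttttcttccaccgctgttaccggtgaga
Vegfc, chr8:54077282-54077531, plus strand: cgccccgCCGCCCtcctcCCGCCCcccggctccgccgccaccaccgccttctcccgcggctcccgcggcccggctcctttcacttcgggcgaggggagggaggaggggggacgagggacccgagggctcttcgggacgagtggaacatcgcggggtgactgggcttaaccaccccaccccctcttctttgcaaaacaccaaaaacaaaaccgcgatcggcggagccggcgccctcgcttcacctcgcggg
Adm, chr7:110627407-110627656, plus strand: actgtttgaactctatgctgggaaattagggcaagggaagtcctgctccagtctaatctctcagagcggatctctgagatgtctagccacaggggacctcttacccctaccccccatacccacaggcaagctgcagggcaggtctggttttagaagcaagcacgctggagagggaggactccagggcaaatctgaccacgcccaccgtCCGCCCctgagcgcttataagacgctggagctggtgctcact

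The VEGF receptors did not change alike. Kdr, the main signalling receptor for Vegfa, has 1 probe set here. It read 1377, 1279 and 1431 in control and 980, 989 and 850 in SF1 (log2 change -0.53 ± 0.09, SE; limma adjusted p = 0.0057). Every SF1 array lay below every control array, at 69.0% of the control mean on average.

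Flt1, the decoy-like receptor for Vegfa and Vegfb, fell more steeply. Its brightest probe set, 1419300_at, read 645, 680 and 634 in control and 414, 357 and 361 in SF1 (log2 change -0.77 ± 0.09, SE; limma adjusted p = 0.000587). The probe set 1451756_at moved from 433, 454 and 445 to 262, 289 and 266 (-0.68, adjusted p = 0.000647). The probe set 1440926_at moved from 349, 340 and 355 to 221, 230 and 171 (-0.72, adjusted p = 0.00342). Control arrays stayed close together on all 3, and no SF1 array reached them. A dim probe set, 1454037_a_at, read 105, 103 and 111 against 83.3, 98.1 and 88.6 and was not called (-0.21, 95% interval -0.40 to -0.02, adjusted p = 0.136). Flt1 is also made as a soluble form, and which form each probe set sees is not known here. Flt1 fell by 0.24 on the log2 scale more than Kdr in the same arrays, without overlap (exact permutation p = 0.1, the smallest possible, and 0.114 adjusted over 8 pairs).

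Flt4, the receptor for Vegfc on lymphatic endothelium, read 343, 313 and 390 in control and 350, 342 and 360 in SF1. The groups overlapped (log2 change 0.01, 95% interval -0.20 to 0.22, adjusted p = 0.951), and so did those of its dim second probe set (-0.02, adjusted p = 0.937). Within arrays, the change of Kdr lay 0.54 and that of Flt1 0.78 below that of Flt4 on the log2 scale (differences of -0.54 and -0.78; exact permutation p = 0.1 for each, the smallest possible, and 0.114 adjusted over 8 pairs). The intervals of Vegfb and Flt4 still allow falls of up to 0.28 and 0.20 on the log2 scale.

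**Figure D2:**
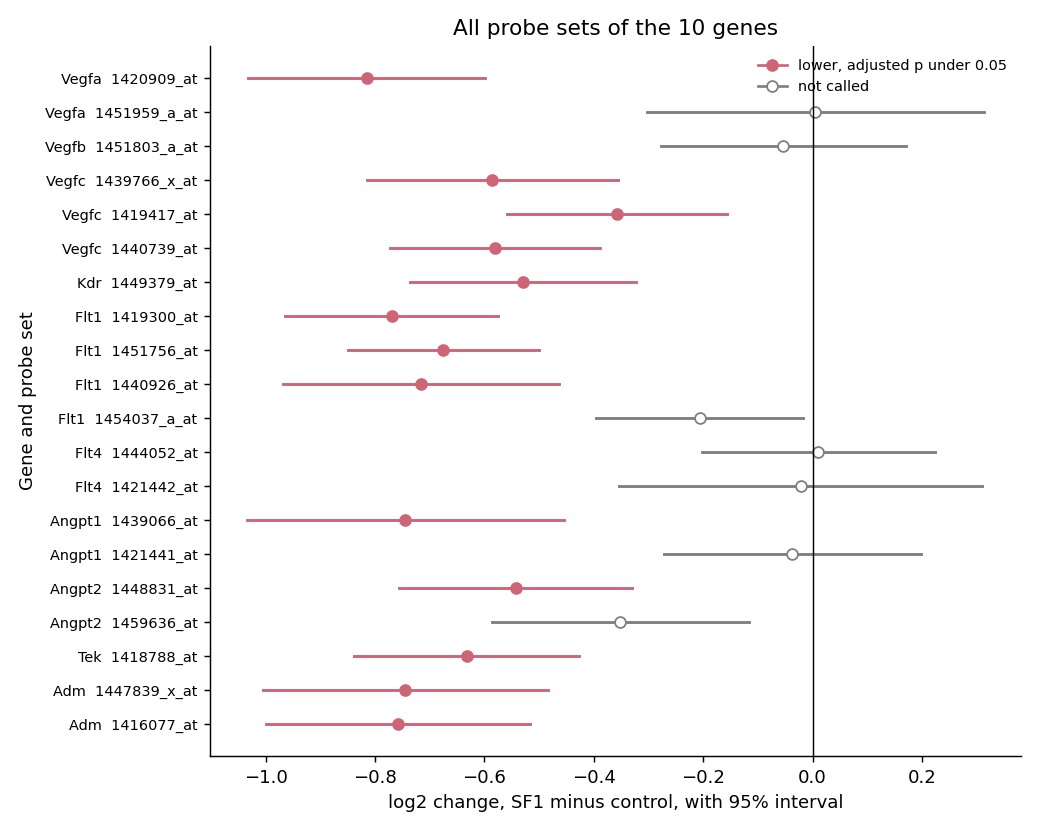
Log2 change (SF1 minus control, on the log2(intensity + 16) scale) of all 20 probe sets, as points with 95% intervals from limma; filled points were called lower and open points were not called. The 13 filled points lie between -0.82 and -0.36, and the open points include both probe sets of Flt4, that of Vegfb, and dim second probe sets of Vegfa, Flt1, Angpt1 and Angpt2.

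Both angiopoietins and their receptor were lower. Tek, the receptor that binds Angpt1 and Angpt2 on endothelium, read 680, 657 and 581 in control and 435, 399 and 386 in SF1 (log2 change -0.63 ± 0.09, SE; limma adjusted p = 0.0023). Angpt1, the activating ligand, read 292, 362 and 268 in control and 202, 163 and 164 in SF1 (-0.74 ± 0.13, SE; adjusted p = 0.0057). Its control arrays were spread, but the lowest of them was still above the highest SF1 array. Its dim second probe set read 62.0 ± 7.87 and 59.9 ± 6.64 (SD, n = 3) and was not called (-0.04, 95% interval -0.27 to 0.20, adjusted p = 0.834).

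Angpt2, the destabilising ligand, read 318, 280 and 310 in control and 190, 226 and 194 in SF1 (log2 change -0.54 ± 0.09, SE; limma adjusted p = 0.00592). Its other probe set was among the dimmest of the set, at 45.5, 53.2 and 58.5 against 38.5, 32.4 and 41.9. Those groups did not overlap, but the change was not called (-0.35, adjusted p = 0.056). Angpt1 and Angpt2 fell by amounts that did not separate: the difference of their changes was -0.20, with overlapping arrays (exact permutation p = 0.4, and 0.4 adjusted over 8 pairs), and single-array or scaling alternatives put it between -0.34 and -0.03.

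Adm, which encodes the vasodilator adrenomedullin, fell by nearly the same amount on both of its probe sets. The brighter, 1447839_x_at, read 531, 530 and 439 in control and 313, 252 and 312 in SF1 (log2 change -0.74 ± 0.11, SE; limma adjusted p = 0.0033). The other, 1416077_at, read 478, 492 and 426 in control and 260, 240 and 308 in SF1 (-0.76 ± 0.11, SE; adjusted p = 0.00207). On both, control replicate 3 was the lowest control array and SF1 replicate 2 the lowest SF1 array, and the groups did not overlap.

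The receptor parts for adrenomedullin changed by unequal amounts. Ramp3, an accessory protein that turns Calcrl into an adrenomedullin receptor, read 528, 530 and 522 in control and 245, 233 and 239.8 in SF1 (log2 change -1.09 ± 0.07, SE; limma adjusted p = 3.68e-05). This was a larger fall than that of any of the 10 genes, and arrays of a group differed by few units. Ramp2, the accessory protein used most by endothelium, read 1596, 1803 and 1474 in control and 797, 879 and 983 in SF1 (-0.86 ± 0.11, SE; adjusted p = 0.00112). Calcrl, the shared receptor, fell less, from 1290 ± 39.6 to 1025 ± 23.6 (SD, n = 3; log2 change -0.33, adjusted p = 0.0199). Its call was lost without control replicate 1, control replicate 3 or any SF1 array (highest adjusted p = 0.0679), and with median centring of the arrays (0.0535).

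Ramp1, which makes Calcrl a receptor for calcitonin gene-related peptide, read 758, 822 and 885 in control and 946, 843 and 1010.1 in SF1 and was not called (log2 change 0.18, 95% interval -0.04 to 0.40, adjusted p = 0.252). In the same arrays the change of Ramp2 lay 1.04 and that of Ramp3 1.27 on the log2 scale below that of Ramp1 (differences of -1.04 and -1.27; exact permutation p = 0.1 for each, the smallest possible, and 0.114 adjusted over 8 pairs). Ramp3 also fell by 0.76 more than Calcrl, with the same p-values. Calcb, the gene of a calcitonin gene-related peptide, rose from 23.0, 26.0 and 28.1 to 86.7, 80.1 and 94.4 (1.3, adjusted p = 4.13e-05), all of them dim values. Mme, a peptidase that breaks down vasoactive peptides, fell from 1524 ± 315 to 831 ± 78.6 (-0.85, adjusted p = 0.00563). Ackr3, a scavenger receptor for adrenomedullin (-0.08, adjusted p = 0.581), and Pam, which amidates the peptide (0.29, adjusted p = 0.0808), were not called. Pam was called higher without SF1 replicate 2 (adjusted p = 0.0355), which gave 2 rises on this axis, and in 3 other settings (adjusted p between 0.0365 and 0.0497). Of 12 measured genes of this axis beside Adm, 4 fell and 1 rose, against 8.11% of all genes called lower and 8.45% called higher.

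Around the VEGF receptors, 3 of 14 genes fell (21.4%, against 8.11% of all genes) and 2 rose (14.3%, against 8.45%). Nrp2, a co-receptor for Vegfc and Vegfa, rose from 925, 891 and 911 to 1426, 1338 and 1597 (log2 change 0.66 ± 0.09, SE; limma adjusted p = 0.00144), and 2 of its 3 other probe sets were called the same way. Ccbe1, a secreted protein needed to process Vegfc, rose from 346, 329 and 374 to 689, 542 and 718 (0.86 ± 0.11, SE; adjusted p = 0.00166), and 1 of its 3 other probe sets was called the same way. For Calcrl, Vegfd, Grb14, Cdh5, Sox7, Stc1, Notch1, Col4a3 and Epcam, described here by their brightest probe set, no other probe set was called. Nrp1, the co-receptor for Vegfa on blood endothelium, read 1766, 1367 and 1636 in control and 2479, 2118 and 1780 in SF1 and was not called, although the groups did not overlap (0.41, 95% interval 0.10 to 0.73, adjusted p = 0.0859). It was called without SF1 replicate 3 (adjusted p = 0.0486). Adamts1, a protease that also binds Vegfa (-0.72, adjusted p = 0.00255), and Sema3c, a semaphorin that binds neuropilins (-0.70, adjusted p = 0.000921), fell.

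Of the remaining ligands of the family, Vegfd, which binds Flt4, read 475 ± 19.4 in control and 385 ± 27.1 in SF1 (SD, n = 3; log2 change -0.29, adjusted p = 0.0493). That call was lost without any 1 of the 6 arrays (highest adjusted p = 0.154) and under both other scalings of the arrays. Pgf, which binds Flt1, was not called (-0.23, adjusted p = 0.133). Of 12 genes around Tek, 2 fell (16.7%, against 8.11% of all genes) and 1 rose (8.33%, near the 8.45% of all genes). Ptprb, the phosphatase that restrains Tek, fell from 906, 1050 and 938 to 604, 530 and 539 (-0.77 ± 0.09, SE; adjusted p = 0.000799). Tie1, the partner receptor of Tek, fell by 0.36 (adjusted p = 0.0246), a call lost without control replicate 1, control replicate 3 or any SF1 array (highest adjusted p = 0.0773), and with median centring. Grb14, an adaptor that binds Tek, rose by 0.59 (adjusted p = 0.0242), a call that did not hold without control replicates 1 or 3, nor without SF1 replicates 1 or 3 (highest adjusted p = 0.091).

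**Figure D3:**
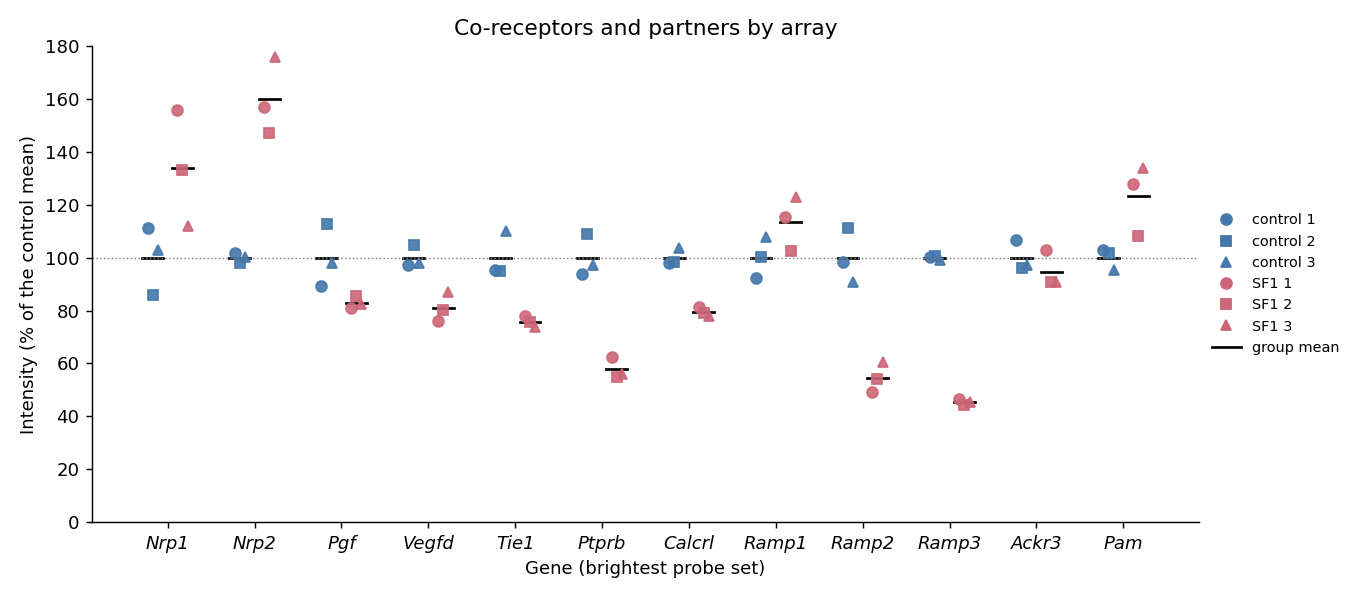
Intensity as a percentage of the control mean for the brightest probe set of 12 co-receptors, ligands and partners, with 1 point per array and a bar at each group mean; the dotted line is the control mean. Ramp3, Ramp2 and Ptprb lie far below the line in all 3 SF1 arrays, Nrp2 lies above it in all 3, and Ramp1 and Ackr3 overlap with control.

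Signalling genes and targets downstream of the VEGF receptors fell in part, with 6 of 19 lower (31.6%, against 8.11% of all genes) and 1 higher (5.26%, below the 8.45% of all genes), and a median log2 change of -0.16. Stc1, a secreted glycoprotein gene, fell by 1.01 (adjusted p = 0.000463) and Aplnr, the apelin receptor of endothelium, by 1.00 (adjusted p = 0.00369). Mapkapk2, a stress kinase gene, rose by 0.36 (adjusted p = 0.0396), a call lost without any array but SF1 replicate 3 (highest adjusted p = 0.115) and with a pseudocount of 1 (0.0577). Of 13 genes listed as inhibitors or feedback genes of angiogenesis, 5 fell (38.5%, against 8.11% of all genes) and 2 rose (15.4%, against 8.45%). Col18a1, whose product yields endostatin, fell from 2435 ± 30.3 to 995 ± 50.04 (-1.28, adjusted p = 2.27e-05). Vash2 fell by 0.96 (adjusted p = 0.000147); it stands in the list as a vasohibin gene but is known to promote vessel growth. The other 4 falls were those of Col18a1, Notch1, Hey2 and Notch4. Notch1 fell by 0.53 (adjusted p = 0.00416). Hey2 (-0.43, adjusted p = 0.0464) and Notch4 (-0.48, adjusted p = 0.0334), Notch pathway genes, were named after their values were seen. Of this list, 3 genes fell without any 1 of control replicates 1 and 2 and SF1 replicates 1 and 2. These were Col18a1, Vash2 and Notch1, so the calls of Hey2 and Notch4 were lost there. The rises of Hes1 (0.61, adjusted p = 0.044) and Col4a3 (0.54, adjusted p = 0.0366) did not hold without most single arrays: Hes1 kept its call only without control replicate 1, and Col4a3 only without control replicate 2 (highest adjusted p = 0.13 and 0.102). Hes1 also lost its call with array weights (0.0767), and both did with a pseudocount of 1 (0.0678 and 0.0552).

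Vegfa and Adm are textbook targets of hypoxia-inducible factors, and other hypoxia genes are given beside them. The part of these factors in the falls was not tested. Of 18 measured hypoxia genes without Vegfa and Adm, 0 fell and 4 rose (0% and 22.2%, against 8.11% and 8.45% of all genes, limma). At an unadjusted p under 0.05, 2 were lower, Epas1 (-0.30) and Arnt (-0.19), and 6 higher. The groups were apart with SF1 below control in 5 and above it in 7, against 23.7% and 16.3% of all genes. Egln3, an oxygen-sensing hydroxylase, rose from 98.4, 105 and 99.4 to 187, 439 and 187 (log2 change 1.18, adjusted p = 0.0235). SF1 replicate 2 stood far above the other SF1 arrays, and the adjusted p reached 0.0713 with control replicate 1 or control replicate 3 left out and 0.0733 with eBayes with trend and robust. Ankrd37, another hypoxia-induced gene, rose from 83.5, 96.8 and 80.2 to 182, 156 and 191 (0.90, adjusted p = 0.000594). The glucose transporter gene Slc2a1 rose by 0.55 (adjusted p = 0.0422), a call that held without control replicate 2 and was lost without any other array (highest adjusted p = 0.12) and with a pseudocount of 1 (0.0644). Instead of 4 risen genes there was 1 with control replicate 1 left out, and there were 2 with control replicate 3, SF1 replicate 1 or SF1 replicate 2 left out. Over the 88 measured genes of all these pathway lists, 20 fell and 11 rose (22.7% and 12.5%, against 8.11% and 8.45% of all genes), with a median log2 change of -0.08. The rises numbered 5 without SF1 replicate 1, control replicate 1 or control replicate 3, and 7 without SF1 replicate 2.

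Because Kdr, Flt1, Tek and Angpt2 are made largely by endothelium, the defining markers of that cell type are given beside them. Of 20 endothelial markers, 17 fell (85% against 8.11% of all genes) and 1 rose (5%, below the 8.45% of all genes), and none was at the lowest value. Their summed level was 16337 to 17108 in control and 10049 to 10688 in SF1. Bright markers weigh most in this sum. Sox17, the brightest and not particular to endothelium, alone read 4217 on average in control and 2025 in SF1. Among these markers, Cdh5, Nos3, Tie1 and Ptprb also stand in the pathway lists above, so their falls are counted in both. Cdh5, the endothelial cadherin, read 829, 960 and 860 in control and 579, 489 and 411 in SF1 (log2 change -0.83, adjusted p = 0.003). Emcn, a sialomucin of capillaries and veins, fell by 0.47 (adjusted p = 0.0046). Pecam1 fell by 0.39 (adjusted p = 0.0473), a call lost without any control array or SF1 replicate 1 or 3 (highest adjusted p = 0.123), and under both other scalings. Sox7 (-1.27, adjusted p = 1.72e-05), Sox17 (-1.05) and Cd34 (-1.05) had the largest falls, although uterine epithelium and stroma can express Sox17 and Cd34. Plvap, of fenestrated endothelium, rose by 0.61 (adjusted p = 0.0229), but its adjusted p reached 0.073 where control replicate 1, control replicate 3 or SF1 replicate 1 was left out.

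Of 5 lymphatic endothelial markers measured, 0 fell and 0 rose (limma), against 8.11% of all genes called lower and 8.45% called higher. At an unadjusted p under 0.05 the counts were 0 and 0 as well, without a share over all genes beside them. Their summed level was 3204 to 3815 in control and 3476 to 3683 in SF1. Prox1, the defining transcription factor, read 139 ± 4.65 and 155 ± 15.6 (SD, n = 3; log2 change 0.14, adjusted p = 0.329). Lyve1, which macrophages can also express, gave -0.01 (adjusted p = 0.955), a sign that turned with median centring and quantile normalization. Flt4 and these markers thus gave no call, while Vegfc fell.

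Angpt1 is made by perivascular cells and stroma, and markers of both were lower in part. Of 10 pericyte markers, 6 fell (60% against 8.11% of all genes) and 1 rose (10%, near the 8.45% of all genes), with a summed level of 14259 to 15152 in control and 9638 to 10137 in SF1. Pdgfrb, the receptor that recruits pericytes, fell by 0.78 (adjusted p = 0.000491), Rgs5 by 0.93 (adjusted p = 0.000197) and Anpep by 1.11 (adjusted p = 0.000171), while Rgs4 rose by 1.37 (adjusted p = 0.000182). Of 8 smooth muscle markers, 0 fell and 0 rose (limma, against 8.11% and 8.45% of all genes), with sums of 28744 to 31548 and 31183 to 33547. At an unadjusted p under 0.05, 1 was lower and 1 higher. Of 10 stromal markers, 5 fell (50% against 8.11% of all genes) and 0 rose, with sums of 59498 to 63929 and 53028 to 58494. Pdgfra fell by 0.72 (adjusted p = 0.000369) and the stromal transcription factor genes Hoxa11 by 1.05 (adjusted p = 0.0019), Hand2 by 0.88 (adjusted p = 0.000294) and Hoxa10 by 0.73 (adjusted p = 0.000654). The 5 stromal markers not called were Col1a1 (0.05), Col1a2 (0.20), Col3a1 (0.15), Lum (0.06) and Vim (-0.02).

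Epithelium and macrophages are both sources of Vegfa. Of 8 epithelial markers, 4 rose (50% against 8.45% of all genes), 1 fell (12.5%, against 8.11%) and 3 were not called, with sums of 16313 to 17160 in control and 19119 to 21141 in SF1, and Epcam rose by 0.38 (adjusted p = 0.0132), a call lost without SF1 replicate 1 (adjusted p = 0.0541). With SF1 replicate 1 left out, 2 epithelial markers rose. The cytokeratin gene Krt7 rose by 1.80 (adjusted p = 1.98e-05), Cdh1, the epithelial cadherin, by 0.71 (adjusted p = 0.00361) and Cldn4, a tight junction gene, by 0.71 (adjusted p = 0.0358), while Krt19 fell by 0.36 (adjusted p = 0.0355, and 0.0552 with median centring). The adjusted p of Cldn4 reached 0.106 and that of Krt19 0.114 with 1 array left out (control replicate 1, control replicate 3 or SF1 replicate 1 for both, SF1 replicate 2 for Cldn4 and SF1 replicate 3 for Krt19), and both calls were lost with a pseudocount of 1. Of 8 macrophage markers, 7 rose (87.5%, against 8.45% of all genes) and 0 fell, with sums of 4057 to 6324 and 8307 to 10426, and 3 rose without SF1 replicate 1 or SF1 replicate 2. Aif1 rose by 1.45 (adjusted p = 0.000651) and the complement genes C1qa by 1.02 (adjusted p = 0.00419) and C1qc by 0.94 (adjusted p = 0.0298). The call of C1qc was lost without any SF1 array (highest adjusted p = 0.1), with eBayes with trend and robust (0.0947) and with a pseudocount of 1 (0.0514). The part of these shifts in the levels of the 10 genes was not tested.

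**Figure D4:**
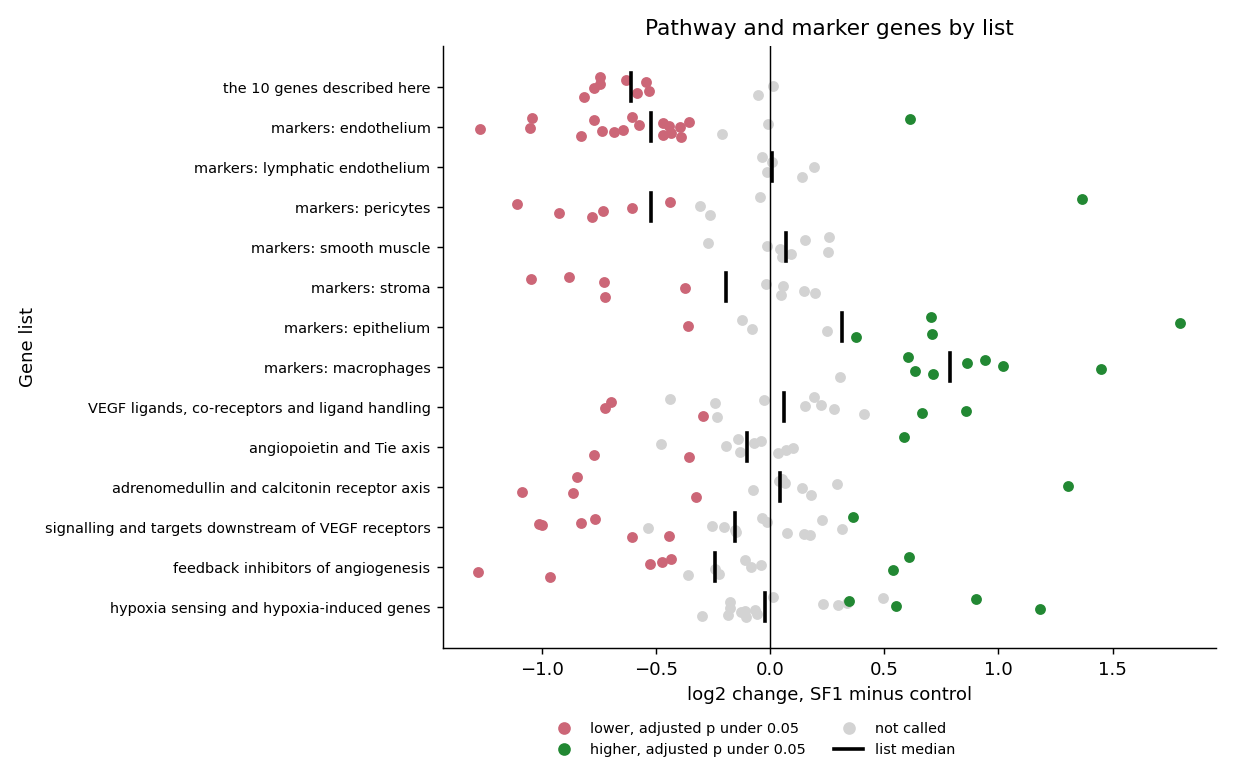
Log2 change (SF1 minus control) of the 10 genes and of each measured gene of the marker and pathway lists, 1 point per gene by its brightest probe set, coloured by call, with a black bar at the list median; vertical offsets only separate points. The medians of the 10 genes (-0.61), endothelial markers (-0.52) and pericyte markers (-0.52) lie to the left, that of lymphatic markers (0.01) near 0, and that of macrophage markers (0.79) to the right.

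The changes were also set against the endothelial markers in the same arrays, as each gene's log2 intensity minus the median log2 intensity of the 20 markers. The SF1 arrays had a marker median of 8.80 ± 0.18 and the control arrays one of 9.14 ± 0.05 (SD, n = 3). That is a change of -0.34, smaller than the median of the 20 markers' own changes (-0.52). This reference thus understates the fall of the markers, and values below 0 do not show a fall beyond theirs. Overlap was examined against this reference only. The relative changes of Vegfa (-0.48), Flt1 (-0.43), Tek (-0.29) and Kdr (-0.19) were below 0 and that of Flt4 (0.35) above it, without overlap between groups (exact permutation p = 0.1 for each, the smallest possible). Those of Angpt1 (-0.41), Adm (-0.41), Angpt2 (-0.21), Vegfc (-0.25) and Vegfb (0.28) overlapped (exact permutation p between 0.2 and 0.3). The choice of reference moved these values, and leaving out SF1 replicate 2 brought Adm to -0.22, Angpt1 to -0.27, Tek to -0.19 and Vegfc to -0.12. Vegfc gave -0.16 without control replicate 2, and Vegfb 0.18 without SF1 replicate 3. Against the mean of the 20 markers, Vegfa gave -0.28, Flt1 -0.23, Tek -0.0929, Kdr 0.0094, Flt4 0.55, Angpt1 -0.21, Adm -0.21 and Vegfb 0.49. Against Pecam1, Cdh5 and Emcn alone, Kdr gave 0.0036. Among the genes that did not overlap, the sign thus turned for Kdr and held for Vegfa, Flt1, Tek and Flt4 under both.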

How the data were processed

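Per the labels, RNA was hybridised to Affymetrix mouse 430 2.0 arrays. The deposited tables give linear intensities per probe set that ran from 1 to 25325; background correction, normalization and summarization are not given in the sources used here, and an unstated background step would change dim probe sets most. Of 45101 probe sets, 64 controls were set aside. A platform table gave 34945 tested probe sets 1 symbol, 932 several and 9160 none; those with several or none were tested but not named. Where several probe sets named a gene, the brightest on average stood for it in gene counts. Intensities were transformed as log2(value + 16), which understates changes of dim genes, and fitted with limma 3.58.1 (lmFit, eBayes) in R 4.3.3, with Benjamini-Hochberg adjustment over all tested probe sets and calls at an adjusted p under 0.05. Tables and plots used pandas 2.3.3 and matplotlib 3.10.9 in Python 3.11.15.

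The 10 genes, the 13 lists (157 of 162 entries measured) and the tests were chosen with earlier results of these data known. Genes named were the 10, their direct partners, set marker genes, and up to 3 called genes in each direction per list. Alternatives were other scalings, pseudocounts, filters and thresholds, eBayes settings, array weights, the replicate number as a block, and leaving out each array. In simulated data with 45037 probe sets, 50 were changed at each fold, all of them brighter than the median probe set. The fit for SF1 against control recovered 4% of simulated 1.3-fold changes, 48% of 1.5-fold ones and 80% of 2-fold ones. Far fewer probe sets changed there than the 6291 called in the data. That makes the adjusted threshold stricter in the simulation, so these shares do not carry over to the real fit. The number of arrays limits precision: replicate arrays had a median log2 SD of 0.108 (control) and 0.1 (SF1).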

Additional observations from a re-analysis of the deposited data

How the results depend on the processing

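Of the 20 probe sets of the 10 genes, 13 stayed called lower under both scalings, both other pseudocounts, the filter to brighter probe sets, array weights and eBayes with trend and robust. With an adjusted p under 0.01 the count was 12, with a fold of at least 1.5 in addition 9, and with 1 array left out 12 to 13. Same-numbered arrays did not deviate together from their group means (r = -0.0633, -0.101 and -0.184). With so few arrays per group this does not exclude that some were processed together, which the labels did not say. The replicate block gave 12, losing 1419417_at of Vegfc. It also ended the calls of Vegfd, Tie1, Calcrl, Grb14, Mapkapk2, Pecam1 and Krt19. It ended no other call among the genes followed singly through the alternatives, which did not include Hey2, Notch4 and Nos3. It gave 18 pathway genes lower and 8 higher, and 13 endothelial markers lower. Pathway genes called lower were 13 with the fold in addition, and 14 to 17 with 1 array left out. Pathway genes called higher were 7 with a pseudocount of 1, 4 with an adjusted p under 0.01, 7 with the fold in addition, and 5 to 9 with 1 array left out. Endothelial markers called lower were 9 with the fold in addition and 13 to 15 with 1 array left out. The cause of the shift with a pseudocount of 1 was not tested; the other settings are stricter or use fewer arrays.

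Against the mean of the endothelial markers, the relative changes were -0.28 for Vegfa, -0.0464 for Vegfc, 0.0094 for Kdr, -0.23 for Flt1, 0.55 for Flt4, -0.0039 for Angpt2 and -0.0929 for Tek. Against Pecam1, Cdh5 and Emcn alone they were -0.28 for Vegfa, 0.0036 for Kdr, -0.24 for Flt1, 0.54 for Flt4, -0.0097 for Angpt2 and -0.10 for Tek. Beyond the relative change of Kdr, signs turned for changes near 0 that were not called. Array weights gave -0.077 for 1451959_a_at of Vegfa and 0.0337 for 1421441_at of Angpt1. Median centring and quantile normalization gave 0.0298 and 0.0262 for 1421442_at of Flt4, 0.0139 and 0.0126 for 1421441_at of Angpt1, and 0.0369 and 0.0194 for Lyve1. With 1 array left out, values ranged from -0.16 to 0.10 for 1451959_a_at of Vegfa, -0.11 to 0.0429 for Vegfb, -0.0602 to 0.0912 for 1444052_at and -0.20 to 0.10 for 1421442_at of Flt4, -0.11 to 0.0385 for 1421441_at of Angpt1, and -0.13 to 0.12 for Lyve1.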
